A study of Homo sapiens with 6 samples.

Results

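The 35 genes described here are 35 of the 60617 gene identifiers counted in each library. They were chosen by symbol as a set of hypoxia-regulated and glycolytic genes, with earlier results of these data known. Of these, 34 passed the low-count filter, among 20423 genes tested in all. CA9, a carbonic anhydrase, was too low to test in the main fit. The set holds the oxygen sensors EGLN1 and EGLN3, the hypoxia-inducible factor subunits HIF1A and EPAS1, secreted factors, carbonic anhydrases, glucose transporters, the enzymes of glycolysis, collagen-modifying enzymes and a few other targets.

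RNA sequencing was performed on 6 xenograft tumors of the human melanoma line WM983-B. The anle138b group comprised 3 tumors given systemic anle138b, a diphenyl-pyrazole small molecule described as binding oligomeric α-synuclein, and the untreated group comprised 3 tumors given no treatment. The sample titles form 2 naming sets that each hold both groups: 4 libraries with Juni2018 in the title (anle138b 1 and 2, untreated 1 and 2; the 4-library set) and 2 with blau (anle138b 3 and untreated 3; the 2-library set). What the sets stand for, the dose, the duration, the host strain, and whether each tumor came from its own animal are not given in the sources used here, so the p-values reflect the spread among these 6 libraries, which may be technical. No vehicle is named for the untreated group.

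Cells sense oxygen through prolyl hydroxylases of the EGLN family, which mark the HIF alpha subunits for destruction when oxygen is present. When oxygen is scarce the subunits accumulate, pair with ARNT and bind short DNA elements with the core ACGTG or GCGTG near their targets. These targets include vascular growth factors, glucose transporters and most glycolytic enzymes, so a hypoxic tumor cell takes up more glucose and releases more lactate. HIF activity is controlled mainly at the protein level, which RNA counts do not measure.

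Depth was 12400782 to 15865560 counts in the 4-library set and 22768826 and 27599159 counts in the 2-library set, and 3 counts stood for 0.109 to 0.242 CPM of the unscaled library totals. Levels elsewhere are CPM scaled with TMM factors, except where stated. Intervals and floors cover counting error only. All 9 melanocyte-lineage markers examined were detected, with a summed level of 14634 to 19571 CPM. In bulk tumors, fewer cells of a type and less RNA per cell cannot be told apart.

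Promoter sequence was available from RefSeq (GRCh38.p14) for 32 of the 35 genes, as 52 windows from 250 bases before to 50 after a transcription start. The letters ACGTG or GCGTG, searched on both strands so that CACGTG counts on each, occurred in 39 of these windows (75.0%), against 48.4% of all 35116 windows of that length. ACGTG, with or without GCGTG, was in 44.2% of the members' windows and in 21.4% of all windows. GCGTG, with or without ACGTG, was in 46.2% and 36.5%. The members' windows were also richer in G and C, with a median of 66.5% against 58.7% for all windows, and the part of base composition in the motif shares was not tested. The sequences below come from selected windows and all hold a core, so they are examples only. Each is the longest stretch of its window that lies in no annotated exon. They show the core letters, in capitals on either strand, for 3 genes that were lower in the 2-library set (HK2, PFKFB3, ALDOA) and 2 that did not pass that test (LDHA, GAPDH). The corresponding stretches of EGLN3 and PDK1, which were also lower, held no core. The full EGLN3 window held none either, but a full PDK1 window held 2 ACGTG matches outside its stretch.
HK2 (chr2:74834920-74835169, plus strand): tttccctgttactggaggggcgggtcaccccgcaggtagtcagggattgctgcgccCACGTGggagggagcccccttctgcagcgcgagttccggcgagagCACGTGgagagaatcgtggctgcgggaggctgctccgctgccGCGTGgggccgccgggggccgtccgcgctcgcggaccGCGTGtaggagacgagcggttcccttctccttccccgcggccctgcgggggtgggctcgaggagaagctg
PFKFB3 (chr10:6202694-6202865, plus strand): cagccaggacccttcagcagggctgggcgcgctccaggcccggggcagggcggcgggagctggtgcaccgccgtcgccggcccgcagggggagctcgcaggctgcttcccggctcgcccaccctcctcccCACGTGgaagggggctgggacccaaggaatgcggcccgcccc
ALDOA (chr16:30065510-30065672, plus strand): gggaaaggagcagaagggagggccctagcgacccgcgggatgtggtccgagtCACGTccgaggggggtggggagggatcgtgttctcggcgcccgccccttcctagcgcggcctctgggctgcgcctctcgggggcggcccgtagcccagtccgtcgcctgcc
LDHA (chr11:18394313-18394387, plus strand): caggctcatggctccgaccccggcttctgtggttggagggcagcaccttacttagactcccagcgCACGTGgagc
GAPDH (chr12:6535142-6535263, plus strand): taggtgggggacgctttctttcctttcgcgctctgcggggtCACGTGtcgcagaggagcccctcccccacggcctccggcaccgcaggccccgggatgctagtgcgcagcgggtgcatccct
The HK2 stretch holds 4 ACGTG matches, in 2 CACGTG palindromes, and 2 GCGTG matches. The PFKFB3, LDHA and GAPDH stretches each hold 1 palindrome, and the ALDOA stretch holds 1 ACGTG match. The HK2, PFKFB3, ALDOA and GAPDH stretches lie inside the annotated span of their genes, before an internal start. Only the LDHA stretch lies before the annotated start of its gene. At least 1 core was found in 18 of the 23 windows (78.3%) of genes lower in the 2-library set. It was also found in 20 of 28 windows (71.4%) of genes not called between sets, among them CA9, which was too low to test in the main fit. Genes with several starts gave several windows, HK1 the most, so windows were not independent and these shares were not compared.

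Levels of the members can be compared per kilobase of exon, though reads shared with pseudogenes or overlapping genes may be lost unequally. Counts of named pseudogenes came to 28.2% of those of PGAM1 and 4.62% of those of GAPDH, and 38.5% of the CA9 exon bases are shared. Averaged over 6 libraries, ENO1, the main enolase of most tissues, had the highest level, 670 CPM per kilobase, with a range of 386 to 907. GAPDH followed at 362 (284 to 469), and PKM, pyruvate kinase, at 241 (167 to 322). PGK1 at 132 CPM per kilobase and LDHA at 110 (86.2 to 132) had overlapping ranges. Other enzymes were lower, with TPI1 at 75.5, PFKP at 52.3, GPI at 37.5, ENO2 at 17.7 and PGAM1 at 7.73 CPM per kilobase. HIF1A was expressed at 34.1 CPM per kilobase (30.6 to 39.3), above EPAS1 at 2.86 (2.56 to 3.63), EGLN3 at 3.07 and EGLN1 at 2.84, and these last 3 overlapped. The lowest levels per kilobase were those of ADM (0.466), STC2 (0.343), CA12 (0.201) and CA9 (0.140).

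No member passed the test for treatment in either direction, whereas 18 of 34 differed between the naming sets. Across all genes, 1.05% were called for treatment (134 or 0.656% higher and 81 or 0.397% lower in anle138b) and 15.5% between sets. In the 2-library set 16 of the 34 members (47.1%) were lower, where 7.14% of all genes were, and 2 (ADM and SLC2A3) were higher, where 8.32% of all genes were. The members' median log2 difference, 2-library set over 4-library set, was -0.53, with 30 values below and 4 above 0, and the median over all genes was -0.02. All 4 libraries of the larger set lay above both of the smaller for 19 of the 34 (19.4% of all genes), and both of the smaller lay above for 3 (ADM, SLC2A3 and LOX, against 19.0% of all genes). Tests are edgeR's quasi-likelihood test with Benjamini-Hochberg adjustment over all 20423 genes, with treatment and set in 1 fit. Values below are TMM-scaled CPM, given in the order anle138b 1, anle138b 2, untreated 1 and untreated 2 for the 4-library set and then anle138b 3 and untreated 3 for the 2-library set. Differences are log2 ± SE over 6 libraries.

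**Figure D1:**
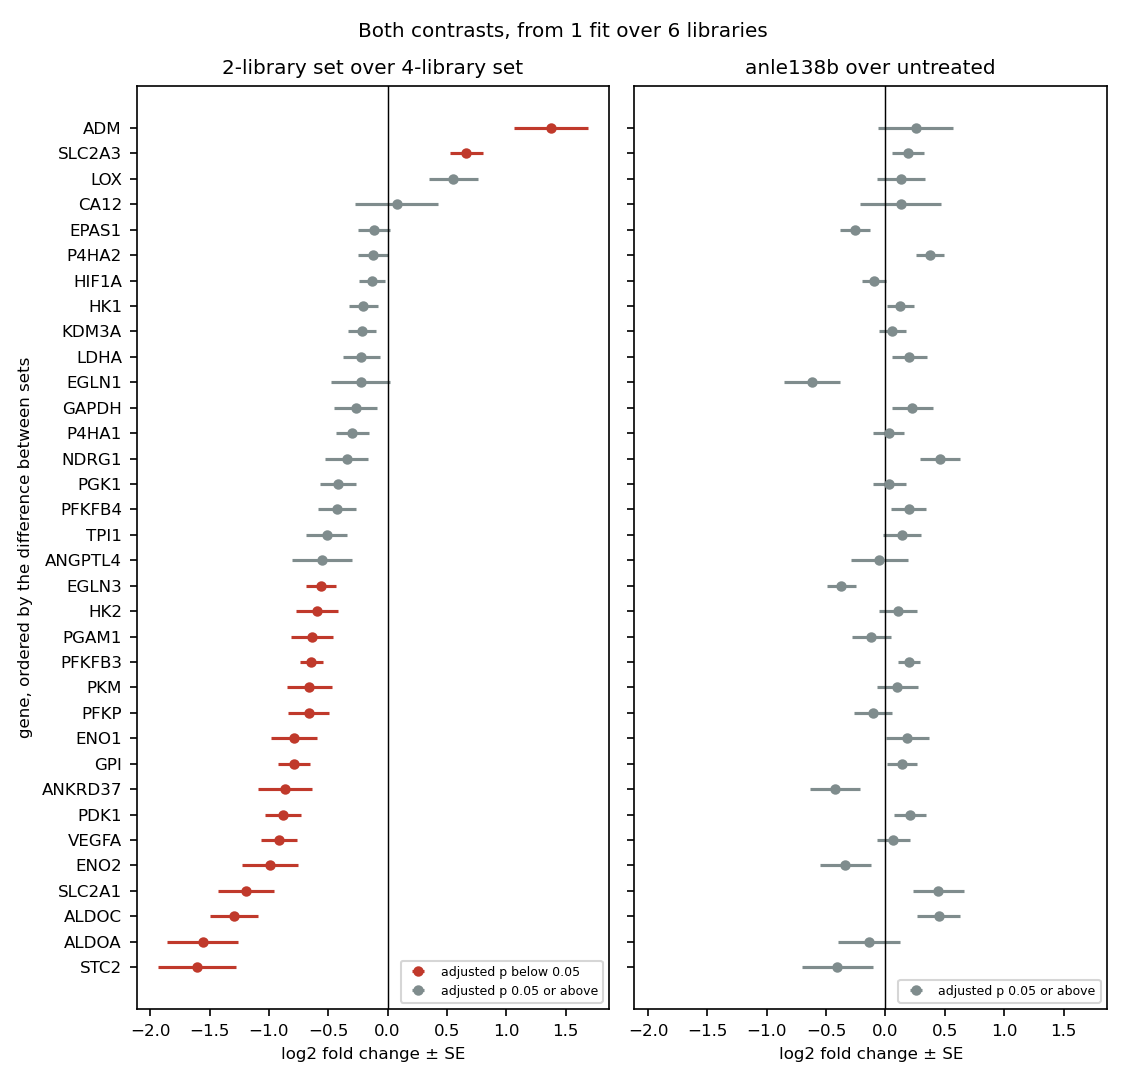
The 34 tested members are listed in the order of their log2 difference between sets. The left panel gives that difference, 2-library set over 4-library set. The right panel gives the log2 difference of anle138b over untreated, from the same fit of 6 libraries. Bars are SE, and red points have an adjusted p below 0.05. The members lie close to 0 for treatment (median 0.12) and mostly below 0 between sets (median -0.53), with ADM and SLC2A3 as the 2 called above 0.

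Among the sensors and factors, 1 of 4 was lower in the 2-library set and 0 were higher. EGLN3 (chr14:33924231-34462774), a hydroxylase that is itself a HIF target, stood at 20.2, 24.4, 29.4 and 27.3 CPM in the 4-library set and at 14.8 and 19.7 CPM in the 2-library set. All 4 libraries of the first set were above both of the second, by a narrow margin, with a difference of -0.56 ± 0.13 (adjusted p = 0.0197). Counts of the named pseudogene of EGLN3 came to 13.8% of its own. HIF1A (chr14:61695513-61748259) stood at 183, 169, 168 and 203 CPM, then at 157 and 173 CPM. These ranges overlapped, and the difference of -0.13 ± 0.11 did not pass (adjusted p = 0.451). EPAS1 (chr2:46293667-46386703), the HIF-2 alpha subunit, had 18.9, 19.3, 21.0 and 26.5 CPM, then 18.7 and 20.7 CPM, again with overlap. EGLN1 (chr1:231363751-231425044), the main oxygen sensor in most cells, ranged widely within the 4-library set at 20.1, 11.0, 23.7 and 33.0 CPM and had 16.8 and 19.1 CPM in the other. Its difference between sets was -0.23 ± 0.25, without passing the test.

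Of the 4 secreted factors, 2 were lower in the 2-library set and 1 was higher. VEGFA (chr6:43770184-43786487), the main growth factor for blood vessels, stood at 100.1, 95.7, 89.4 and 119 CPM in the 4-library set and at 60.7 and 46.6 CPM in the 2-library set. The sets did not overlap, and the difference was -0.92 ± 0.15 (adjusted p = 0.00459), a 1.89-fold higher level in the 4-library set. STC2 (chr5:173314713-173329503), a stanniocalcin hormone, was at 1.84, 2.24, 3.35 and 3.48 CPM, then at 0.991 and 0.721 CPM, a difference of -1.61 ± 0.33 (adjusted p = 0.0124). ADM (chr11:10304680-10307397), the vasodilator adrenomedullin, went the other way: 0.994, 1.04, 0.487 and 0.815 CPM were followed by 2.05 and 2.21 CPM. Both libraries of the 2-library set were above the other 4, by 1.38 ± 0.31 (adjusted p = 0.0181), and ADM, like VEGFA, is an established hypoxia target. ANGPTL4, a lipase inhibitor, differed by -0.55 ± 0.25 and did not pass (adjusted p = 0.168).

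Of the carbonic anhydrases, CA9 (chr9:35673856-35681159) was near the limit of detection. Its counts were 1, 5, 3 and 10 in the 4-library set and 0 and 0 in the 2-library set. The 4 libraries held 19 counts together, 0.336 CPM of the unscaled totals (exact 95% Poisson interval 0.202 to 0.524). The 2 libraries held 0, which allows up to 0.0596 CPM over the set. Against that floor the level was at least 3.39-fold higher at the lower end of the interval, and 5.64-fold at the count itself. Untreated 2 held 10 of the 19 counts, and without it the ratio at the count was 3.59. This ratio of pooled counts has no replicate test. In the edgeR fit with no low-count filter CA9 differed by -5.58 (adjusted p = 0.00107), a size that rests on the 0 counts of the 2-library set. Of the CA9 exon bases, 38.5% are shared with ARHGEF39, a gene with more counts. CA12 stood at 1.20 to 1.70 CPM and at 2.05 and 1.02 CPM in the 2 sets, with no call (0.08 ± 0.35, adjusted p = 0.905).

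Among the glucose transporters, the hexokinases and PDK1, 3 of 5 genes were lower in the 2-library set and 1 was higher. SLC2A1 (chr1:42925375-42959176), the GLUT1 glucose transporter, stood at 128, 111, 72.4 and 132 CPM, then at 65.0 and 35.2 CPM. The sets did not overlap, although untreated 1 was close to anle138b 3, and the difference was -1.19 ± 0.24 (adjusted p = 0.0113). SLC2A3 (chr12:7919230-7936275), the high-affinity transporter GLUT3, stood at 16.1, 21.5, 15.8 and 17.8 CPM, then at 30.5 and 25.9 CPM. It was higher in the 2-library set by 0.66 ± 0.14 (adjusted p = 0.0136), the reverse of SLC2A1. Counts of its 3 named pseudogenes came to 32.2% of its own, so its reads may be split.

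The hexokinases trap glucose in the cell. HK2 (chr2:74833981-74893359), the inducible form, with a stretch inside the gene shown above, stood at 206, 191, 131 and 201 CPM, then at 112 and 128 CPM. The lowest library of the first set was close to the highest of the second, and the difference of -0.59 ± 0.17 was near the threshold (adjusted p = 0.0480). HK1, the widely expressed form, did not pass (-0.20 ± 0.12, adjusted p = 0.280). PDK1 (chr2:172555373-172608669), a kinase that inhibits pyruvate dehydrogenase, stood at 118, 119, 79.8 and 116 CPM, then at 59.7 and 57.3 CPM. Its sets were apart, at -0.88 ± 0.15 (adjusted p = 0.00544).

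**Figure D2:**
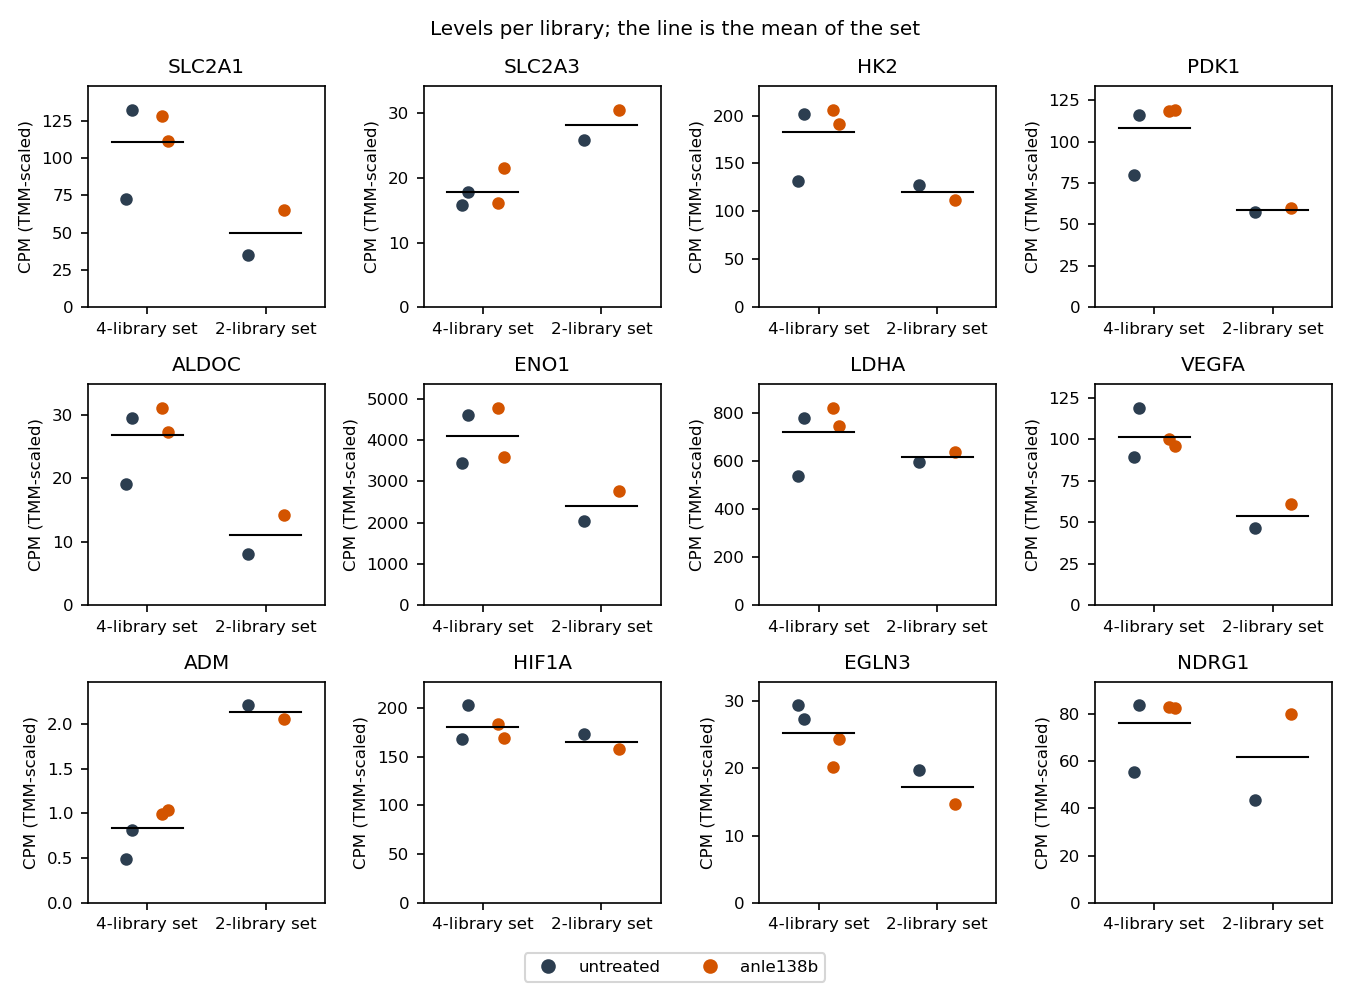
Levels of 12 members in each library, in TMM-scaled CPM on linear axes from 0, by naming set; dark points are untreated, orange points are anle138b, and the line is the mean of the set. PDK1 sits at 79.8 CPM or above in the 4-library set and below 60 CPM in the other, ADM shows the reverse order, and HIF1A overlaps.

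At the phosphofructokinase step, the committed step of glycolysis, 2 of 3 genes were lower in the 2-library set. PFKFB3 (chr10:6144934-6254644), which makes the allosteric activator of phosphofructokinase, stood at 97.6, 102, 88.5 and 92.4 CPM, then at 67.9 and 54.6 CPM. The sets were well apart, at -0.64 ± 0.10 (adjusted p = 0.00337). PFKP, the platelet-type phosphofructokinase, differed by -0.67 ± 0.18 (adjusted p = 0.0338). PFKFB4, a relative of PFKFB3 and also a HIF target, stood at 192, 203, 137 and 153 CPM, then at 112 and 139 CPM. These overlapped, and its difference did not pass (-0.43 ± 0.16, adjusted p = 0.100).

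Of the 11 remaining glycolytic enzymes, 7 were lower in the 2-library set and 0 were higher, with all 11 differences below 0 and a median of -0.66. ALDOC (chr17:28573115-28577264), the brain-type aldolase, stood at 31.1, 27.3, 19.0 and 29.4 CPM, then at 14.2 and 8.06 CPM, a difference of -1.30 ± 0.20 (adjusted p = 0.00347). ALDOA (chr16:30064164-30070457), the muscle-type aldolase of most tissues, stood at 30.8, 20.1, 21.2 and 42.7 CPM, then at 10.5 and 8.78 CPM, or -1.56 ± 0.30 (adjusted p = 0.00902). Neither aldolase overlapped between sets, and both are uncertain in level, since 53.5% of the ALDOA and 10.1% of the ALDOC exon bases are shared with another annotated gene. GPI (chr19:34359480-34402413), which converts glucose-6-phosphate to fructose-6-phosphate, stood at 492, 460.3, 392.3 and 518 CPM, then at 297 and 244 CPM, a difference of -0.79 ± 0.14 (adjusted p = 0.00586).

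The 2 enolases among the members were both lower in the 2-library set. ENO1 (chr1:8861000-8879250) stood at 4787, 3594, 3439 and 4599 CPM, then at 2757 and 2039 CPM, or -0.79 ± 0.19 (adjusted p = 0.0268). ENO2 (chr12:6913745-6923698), the neuronal form, stood at 96.9, 69.6, 68.6 and 127 CPM, then at 37.4 and 54.7 CPM, or -0.99 ± 0.24 (adjusted p = 0.0233). Neither overlapped between sets. PGAM1 and PKM were also lower, with differences of -0.64 ± 0.18 (adjusted p = 0.0394) and -0.66 ± 0.19 (adjusted p = 0.0436), and pseudogene counts came to 28.2% of those of PGAM1.

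The 4 enzymes that did not pass between sets were TPI1 (-0.51), PGK1 (-0.41), GAPDH (-0.27) and LDHA (-0.22). LDHA (chr11:18394388-18408425), which makes lactate, stood at 821, 743, 535 and 778 CPM, then at 637 and 593 CPM. Untreated 1, in the 4-library set, was below both libraries of the other set, and the difference of -0.22 ± 0.16 did not pass (adjusted p = 0.364). The stretch printed above for LDHA carries the same CACGTG palindrome as that of HK2, which did pass.

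The collagen-modifying enzymes P4HA1, P4HA2 and LOX gave 0 calls between sets. Of the remaining targets, ANKRD37 (chr4:185396021-185400628) stood at 5.12, 3.43, 6.52 and 5.85 CPM, then at 2.62 and 3.05 CPM. It was lower in the 2-library set, with a difference of -0.87 ± 0.23 (adjusted p = 0.0334), with 35.2% of its exon bases shared with UFSP2. NDRG1, a stress-induced gene used as a hypoxia marker, stood at 82.7, 82.3, 55.4 and 83.6 CPM, then at 79.9 and 43.6 CPM. In each set an untreated library was the lowest, the sets overlapped, and the difference did not pass (-0.34 ± 0.18, adjusted p = 0.228). KDM3A, a HIF-induced histone demethylase, did not pass either (-0.22 ± 0.12, adjusted p = 0.235).

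**Figure D3:**
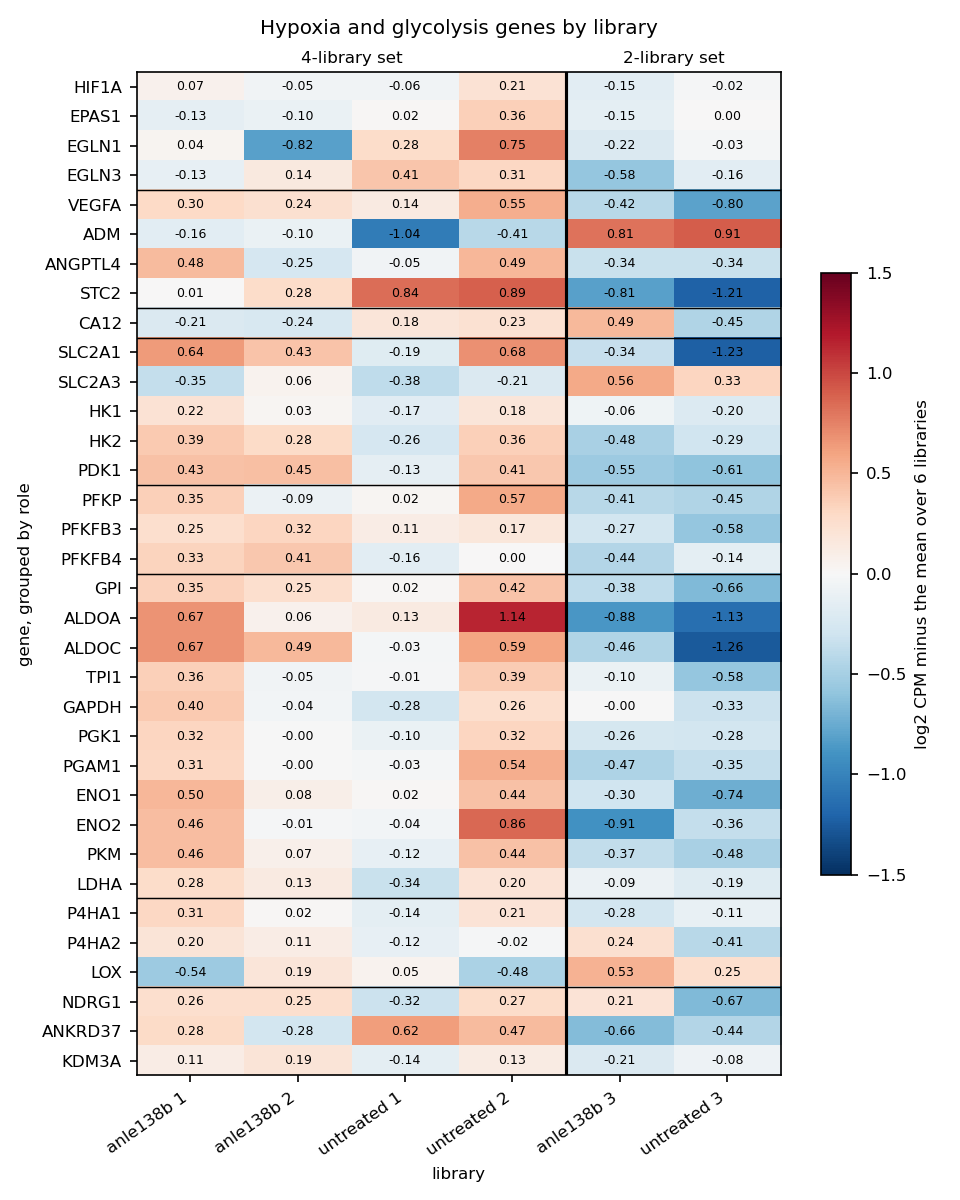
Log2 level of each tested member in each library, centred on the member's mean over 6 libraries, with members ordered by role. The members' median deviation was 0.30, 0.06, -0.04 and 0.36 in anle138b 1, anle138b 2, untreated 1 and untreated 2, and -0.29 and -0.36 in anle138b 3 and untreated 3.

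The number of calls between sets varied with the libraries included. ALDOC, PDK1 and PFKFB3 passed between sets in all 14 alternatives run. Without untreated 3 only 4 members were lower (those 3 and PFKFB4; 11.8%, against 1.25% of all genes) and 0 were higher. Without anle138b 3 the count lower was 8 of 34 (23.5%, against 5.86% of all genes), and without anle138b 1 it was 10 (29.4%, against 2.84%). Without anle138b 2 it was 20 (58.8%, against 13.6%). VEGFA, SLC2A1, ALDOA, GPI, STC2 and ADM lost their call in 1 alternative, without untreated 3, where adjusted p was 0.0523 to 0.262. The other 9 called members lost theirs in 2 to 6 alternatives: ENO2 and SLC2A3 in 2, ENO1 and PFKP in 3, EGLN3, PGAM1 and PKM in 4, ANKRD37 in 5 and HK2 in 6. The direction of each of the 18 called members was the same in every alternative.

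Other measures differed between the sets as well. Summed skeletal muscle markers (8 genes, all detected) were 55.0 to 104 CPM in the 4-library set and 26.3 to 29.1 CPM in the 2-library set. Fibroblast markers (7 of 7 detected) were 413 to 512 CPM against 560 to 823 CPM. Endothelial markers (6 of 6) summed to 8.22 to 11.4 CPM against 15.9 to 19.1 CPM, a sum set by KDR, the receptor for VEGFA (log2 difference 2.20, adjusted p = 0.000259). The other 4 tested genes of that list were below 0, and the list's median was -0.46. The sums of melanocyte-lineage markers overlapped, at 15939 to 19571 CPM against 14634 to 16119 CPM. By gene 3 of 9 were higher in the 2-library set (33.3%, against 8.32% of all genes) and 0 were lower (against 7.14%), with a median of 0.10. Depth was lower in the 4-library set, as given above. These are counts on human genes in xenografts, and the handling of mouse reads is not given. Reads from host cells and expression by the tumor cells cannot be told apart, so the sums cannot be read as cell content. The part of depth and of other cell types in the set difference was not tested.

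Treatment was then examined within the same fit. In simulated data that fit recovered 22% of treatment changes of 0.5 on the log2 scale, so a missing call does not show that there was no difference. The members' median log2 difference, anle138b over untreated, was 0.12, with 23 values above and 11 below 0, and the median over all genes was -0.01. At an unadjusted p below 0.05 there were 5 of 34 members (14.7%) against 8.49% of all genes, and none of the 5 passed adjustment. They were EGLN1 (-0.62 ± 0.23, adjusted p = 0.438), EGLN3 (-0.37 ± 0.12, adjusted p = 0.284), P4HA2 (0.37 ± 0.12, adjusted p = 0.285), NDRG1 (0.46 ± 0.17, adjusted p = 0.427) and ALDOC (0.45 ± 0.18, adjusted p = 0.512).

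EGLN1, EGLN3, HIF1A and EPAS1 all had values below 0, with a median of -0.31. EPAS1 was the 1 member with every untreated library (20.7 to 26.5 CPM) above every treated library (18.7 to 19.3 CPM), as were 4.47% of all genes, and its difference was -0.25 ± 0.13 (adjusted p = 0.680). P4HA2 (chr5:132191838-132295315), a prolyl hydroxylase that stabilises collagen, was the 1 member with the reverse order, as were 4.03% of all genes. It stood at 38.8, 36.6 and 39.8 CPM in anle138b 1 to 3 and at 31.1, 33.3 and 25.3 CPM in untreated 1 to 3. SLC2A1 differed by 0.44 ± 0.21 (adjusted p = 0.652), and its untreated libraries spanned 35.2 to 132 CPM. The 11 glycolytic enzymes named above had a median of 0.14, and VEGFA differed by 0.07 ± 0.14.

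Libraries of 1 group and set also differed from each other. Untreated 2 was above untreated 1 for 31 of 34 members (91.2%, against 54.7% of all genes), by a median of 0.42 on the log2 scale, including all 11 glycolytic enzymes. Anle138b 1 was above anle138b 2 for 24 of 34 (70.6%, against 53.8% of all genes), by a median of 0.13, again with all 11 enzymes. In the 2-library set anle138b 3 was above untreated 3 for 22 of 34 (64.7%, against 49.8% of all genes), with a median of 0.11. Without untreated 2, NDRG1 (0.70, adjusted p = 0.0358) and SLC2A1 (0.79, adjusted p = 0.0200) passed the treatment test as higher. The treatment difference itself was tested for a change between sets, and 0 members and 0 of all 20423 genes passed (edgeR's quasi-likelihood test; DESeq2 called 31 genes, 0 of them members). At an unadjusted p below 0.05 there were 1345 genes (6.59%) and 2 members, PFKFB4 and CA12.

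**Figure D4:**
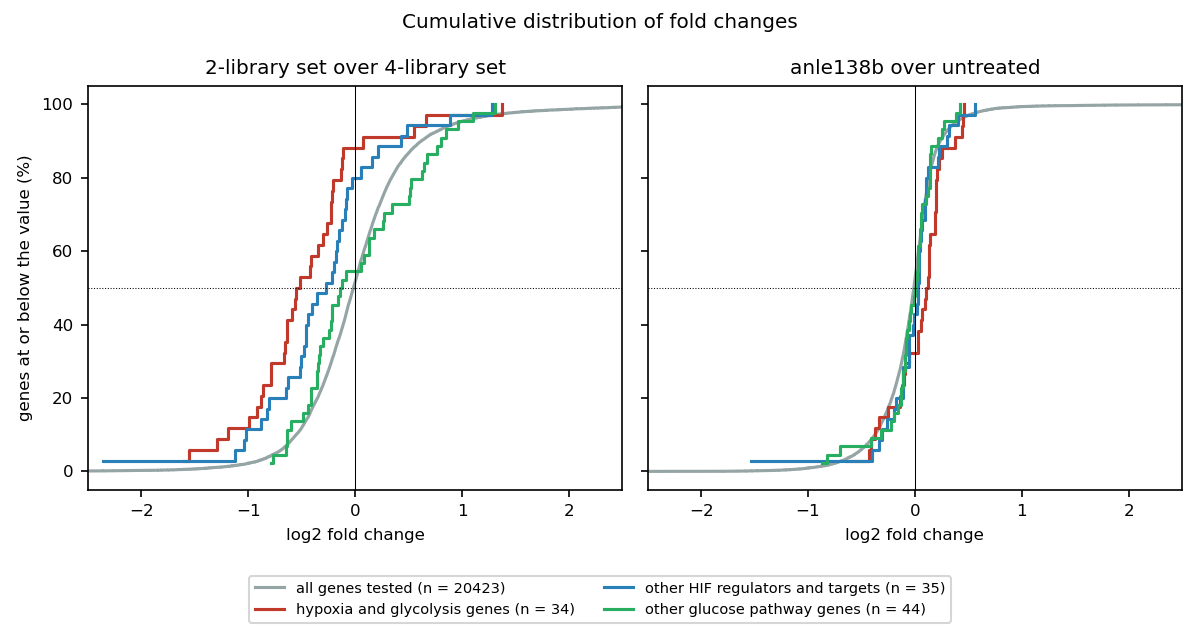
Cumulative share of genes, in percent, by log2 difference between sets (left) and between treatments (right), for the 34 members, the 35 other HIF genes, the 44 other glucose genes and all 20423 genes tested. Between sets the members' curve lies to the left of that of all genes (median -0.53 against -0.02), and between treatments the medians are 0.12 and -0.01.

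Other genes of the same pathways were read from the same fit. Their lists, like the members, were chosen with earlier results of these data known, so the shares are description only. Of 38 further HIF regulators and targets, 35 passed the filter. In the 2-library set 13 were lower (37.1%, against 7.14% of all genes) and 2 were higher (5.71%, against 8.32%). The other 20 did not pass, and the list's median was -0.28. STC1, a relative of STC2, stood at 13.2, 11.9, 10.8 and 21.1 CPM, then at 2.48 and 3.06 CPM, or -2.36 ± 0.28 (adjusted p = 0.000664). TFRC, the transferrin receptor for iron uptake, differed by -1.02 ± 0.12 (adjusted p = 0.000694). The nuclear receptor RORA (1.28 ± 0.18, adjusted p = 0.00158) and the lipoprotein receptor VLDLR (0.89 ± 0.15, adjusted p = 0.00568) were the 2 that were higher.

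In that list 1 gene rose and 1 fell with treatment, and 33 did not pass. CXCR4, a chemokine receptor, stood at 6.65, 5.27 and 3.86 CPM in anle138b 1 to 3 and at 11.4, 17.3 and 15.6 CPM in untreated 1 to 3. The groups did not overlap, and CXCR4 fell with a log2 difference of -1.53 ± 0.23 (adjusted p = 0.0129). That call was lost without anle138b 3 (adjusted p = 0.0741), without untreated 3 (0.0586), in the 4-library set alone (0.0681) and with no set term (0.203). TFRC rose by 0.57 ± 0.11 (adjusted p = 0.0485), and its call was lost without any 1 of the 6 libraries (adjusted p 0.0644 to 0.289), in the 4-library set alone (0.252) and with no set term (0.99995).

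Of 49 other genes of glucose use, 44 passed the filter, and 0 passed for treatment (2 at an unadjusted p below 0.05; median 0.01). Between sets 9 were higher in the 2-library set (20.5%, against 8.32% of all genes) and 8 were lower (18.2%, against 7.14%). The other 27 did not pass, and the list's median was -0.13. The higher genes included PFKFB2 (0.67 ± 0.10, adjusted p = 0.00243), a relative of PFKFB3, which was lower. SLC2A10 (0.85 ± 0.13, adjusted p = 0.00319), a glucose transporter, and PDP1 (0.62 ± 0.11, adjusted p = 0.00675), the phosphatase that opposes PDK1, were also higher. ENO3, the muscle enolase, was lower (-0.77 ± 0.16, adjusted p = 0.0128). The 35 members together took 1.004% to 1.29% of counts in the 4-library set and 0.881% and 0.763% in the 2-library set, and the other glucose genes took 0.437% to 0.511% and 0.458% and 0.430%.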

How the data were processed

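The authors deposited raw read counts per gene, 1 file per tumor, made from TRIzol-extracted RNA and TruSeq RNA Library Prep Kit v2 libraries per the labels' protocols. That kit does not mark strand, so reads of antisense or overlapping genes cannot be told apart. The submitters' processing notes name bcl2fastq 2.17.1.14, STAR 2.5.2a, featureCounts 1.5.0-p1 and hg38. Annotation, multi-mapping settings and the handling of mouse reads are not given in the sources used here. Symbols and exon lengths came from GENCODE release 29 (GRCh38).

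The counts were fitted in edgeR 4.0.16, under R 4.3.3 (TMM scaling, filterByExpr by group with minimum count 10 and total 15, quasi-likelihood F test, treatment plus naming set, 3 residual degrees of freedom, Benjamini-Hochberg at 0.05). Log2 CPM used a prior count of 2, and SE was derived from the F statistic. The interaction fit had 2 residual degrees of freedom. Replicates of a group differed beyond sampling noise (chi-square per degree of freedom 10.5 to 58.8), so each library counted once. The fit was tested on simulated data. For treatment it recovered 22% of log2 changes of 0.5, 78% of 1 and 100% of 2, with 5.66% of calls false. Between sets these shares were 14%, 76% and 100%, with 7.05% of calls false. DESeq2 1.42.0 and limma 3.58.1 served as alternatives, beside other scalings, other filters, no term for the other factor, the 4-library set alone and each library left out.

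The members and lists were chosen with earlier results of these data known. Of 208 list entries, 207 matched an identifier. Library values were given for the 14 members with the smallest p between sets and for HIF1A, EPAS1, EGLN1, EGLN3, VEGFA, CA9, SLC2A1, HK2, LDHA, PDK1 and NDRG1. Up to 4 called genes with the smallest p were named per further list. Library values of P4HA2, PFKFB4 and CA12 were added after their values were seen. Summed markers of myeloid cells were 22.8 to 42.6 CPM in the 4-library set and 37.8 to 48.0 CPM in the 2-library set, of red cells 0.667 to 3.75 and 0.814 to 1.15 (HBA1 at 0 in all 6), of adipocytes 2.06 to 4.14 and 4.85 to 6.28, and of keratinocytes 16.7 to 23.5 and 18.9 to 22.7.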

Additional observations from a re-analysis of the deposited data

How the results depend on the processing

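Over the 34 tested members and 9 further named genes, in both comparisons, 1240 values under an alternative comprised 1130 that kept direction and side of the threshold, 55 that lost a call, 18 that gained one and 37 that changed sign. For treatment, the calls over all genes (134 higher, 81 lower) became 9 and 0 with no set term, 354 and 400 with no low-count filter, 231 and 181 with DESeq2, and 73 and 19 in the 4-library set alone; the lower calls became 129 with library size alone. With no low-count filter 2 members were called higher (NDRG1 and SLC2A1) and 1 lower (EGLN1). Between sets, all-gene calls (1699 higher, 1458 lower) became 3894 and 2356 with no filter, and with library size alone 64.4% of calls were higher against 53.8%. The stricter filter of 50 counts in 3 libraries left 1 member higher, because ADM was not tested. DESeq2 called 10 interactions higher and 21 lower, against 0. For treatment in the 4-library set alone, VEGFA turned to -0.088, CA12 to -0.46, TPI1 to -0.033 and RORA to -0.052. Leaving out each library gave 69 to 208 higher and 20 to 184 lower calls for treatment, with 0 to 2 members higher, and 732 to 2975 higher and 261 to 2985 lower calls between sets, with 0 to 3 members higher and 4 to 20 lower. Signs changed in these fits for treatment in VEGFA (-0.089 to 0.24), HK2 (-0.063 to 0.27), PFKP (-0.22 to 0.085), ALDOA (-0.32 to 0.26), PGAM1 (-0.24 to 0.055), PKM (-0.023 to 0.27), CA12 (-0.46 to 0.30), ANGPTL4 (-0.27 to 0.14), TPI1 (-0.033 to 0.31), PGK1 (-0.069 to 0.16), P4HA1 (-0.091 to 0.14), LOX (-0.052 to 0.34), KDM3A (-0.012 to 0.17), STC1 (-0.56 to 0.018), RORA (-0.052 to 0.30), VLDLR (-0.32 to 0.0048) and SLC2A10 (-0.16 to 0.020), and between sets in EGLN1 (-0.57 to 0.13), CA12 (-0.71 to 0.77), P4HA2 (-0.35 to 0.094) and CXCR4 (-0.61 to 0.12). The cause of these changes was not tested. No paired analysis was possible because the labels carry no shared replicate numbers. The smaller set has 2 libraries, and depth limits CA9, ADM, STC2 and CA12.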
